A study of Mus musculus with 24 samples.

Results

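The comparison at P28 sets dermal papilla (DP) cells of mice whose floxed Hdac1 and Hdac2 alleles are targeted by Corin-Cre, called dM1/2, against DP cells of control mice in mid anagen, the growth phase of the hair cycle. Its libraries were chosen by age alone. They are the 6 libraries labelled P28 (3 control and 3 dM1/2) of the 24 libraries of the series, which cover P20, P24, P28 and P60. The 6 P24 libraries, from early anagen, are used where the ages are compared, and all 24 in an alternative fit.

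The DP is a group of mesenchymal cells that seldom divide and that sits under the epithelium of the hair follicle. It sends signals to this epithelium, which in anagen proliferates and makes the hair shaft. Hdac1 and Hdac2 are related class I histone deacetylases, the catalytic subunits of the Sin3, NuRD and CoREST corepressor complexes. By removing acetyl groups from histones, these complexes are known for repressing transcription, and in many cell types they act on cell-cycle genes and on genes of other lineages.

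Every mouse carried Corin-Cre, a Cre allele of FVB origin that drives recombination in the DP, together with floxed alleles from C57BL/6J lines. The anagen mice were males. The dM1/2 mice were Cor-cre/+;Hdac1Flox/Flox;Hdac2Flox/Flox. The sample titles call the other libraries control, and the headings of their data columns call them WT, with no genotype at Hdac1 or Hdac2. The study's methods allow any of 5 genotypes for controls, each with Corin-Cre and none of them wild type at both genes. These are Hdac1Flox/+;Hdac2Flox/+, Hdac1Flox/+;Hdac2+/+, Hdac1+/+;Hdac2Flox/+, Hdac1Flox/+;Hdac2Flox/Flox and Hdac1Flox/Flox;Hdac2Flox/+. Controls may thus lack both copies of Hdac1 or of Hdac2, or a copy of each, in the DP. DP cells were labelled with YFP and sorted by FACS in successive rounds, to a purity that the study gives as less than complete. The study describes deletion in the DP as largely efficient but not complete, as some DP cells still stained for Hdac1 and Hdac2 in the first hair cycle.

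Gene-level reads per library were 48331795, 45866922 and 43392939 in controls 1 to 3 and 37171260, 41559897 and 46048245 in dM1/2 1 to 3. Values are normalized reads, that is, reads scaled by a size factor per library. Where a gene has no read, up to 3 reads remain possible by counting error, and fold changes are then lower bounds. Col1a1, the chain of type I collagen that fibroblasts make in bulk, took 9.74, 19.8 and 1.55% of the reads in controls and 5.12, 6.42 and 9.77% in dM1/2. The share was highest in control 2 and lowest in the library labelled P28 control 3. Gm26917, a predicted noncoding gene known to collect reads of ribosomal RNA, took 3.86, 3.09 and 5.33% of the reads in controls and 10.04, 10.9 and 7.35% in dM1/2. Its share was above every control in each dM1/2 library, and its part in the results was not tested.

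Hdac1 (ENSMUSG00000028800, chr4:129516104-129542713, GRCm38) had 214, 529 and 105 in controls and 190.2, 149 and 126 in dM1/2, in normalized reads. The library labelled P28 control 3 was lower than every dM1/2 library, so that the groups overlapped, and Hdac1 did not pass the test (log2 fold change -0.58, SE 0.55, adjusted p = 0.454, limma). The log2 fold change was 0.03 without control 2 (adjusted p = 0.958, limma), the highest control, and -1.13 without control 3 (adjusted p = 0.0426, limma). Hdac2 (ENSMUSG00000019777, chr10:36974544-37001889, GRCm38) had 1077, 968 and 1117 in controls and 1091, 1223 and 1209.6 in dM1/2, with overlapping groups and no difference past the test (log2 fold change 0.16, SE 0.11, adjusted p = 0.333, limma). A gene-level count also holds exons outside the part that Cre removes, reads of transcripts still made from a recombined allele, and reads of cells without recombination. The other class I members, Hdac3 with 817, 776 and 771 in controls and 765, 989 and 972 in dM1/2 and Hdac8 with 133, 113 and 148 in controls and 133, 154 and 113 in dM1/2, overlapped as well.

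The label of DP cells was checked on 12 DP markers, and each of them was above the minimum for testing. Of these, 3 rose and 2 fell, near the shares among all genes given below, and 7 fell without control 2. Their summed level was 187528, 103653 and 273271 normalized reads in controls and 97046, 75318 and 89792 in dM1/2, with Vcan the most abundant. On this scale all dM1/2 libraries were below every control. As CPM, that is, scaled to the total of each library, the sums were 8920, 3529 and 16606 in controls and 6122, 4229 and 4857 in dM1/2, so that control 2 was below every dM1/2 library. Corin (ENSMUSG00000005220, chr5:72300025-72504473, GRCm38), a membrane protease that is the source of the Cre driver's promoter, had 41112, 30326 and 75255 in controls and 4581, 4009 and 5005 in dM1/2. All dM1/2 libraries were far below all controls, and Corin fell (log2 fold change -3.33, SE 0.34, adjusted p = 0.000836, limma). Vcan, the matrix proteoglycan versican, had 92819, 45612 and 127185 in controls and 48842, 36836 and 46307 in dM1/2, and the lowest control, control 2, lay within the dM1/2 values (log2 fold change -0.90, SE 0.47, adjusted p = 0.18, limma). The log2 fold change was -0.58 without control 3, and Vcan passed without control 2 (adjusted p = 0.0376, limma), with DESeq2 (adjusted p = 0.0139) and in the limma fit over all 24 libraries (adjusted p = 0.0157). Alpl, the alkaline phosphatase used to stain the DP, had 7553, 1978 and 9669 in controls and 1499, 1441 and 2216 in dM1/2, again with control 2 among the dM1/2 values (log2 fold change -1.64, SE 0.57, adjusted p = 0.0639, limma), and it passed without control 2 (adjusted p = 0.000823, limma), with the replicate block in limma (adjusted p = 0.0362), with edgeR (adjusted p = 0.0336), with DESeq2 (adjusted p = 0.000562) and over all 24 libraries in limma (adjusted p = 0.0045). In the other direction, Sox2, a transcription factor of the DP of some hair types, rose, with 385, 179 and 313 in controls and 704, 861 and 754 in dM1/2 (log2 fold change 1.47, SE 0.28, adjusted p = 0.00774, limma), with every dM1/2 library above every control. Prom1, the surface protein CD133, rose as well, with 144, 41 and 108 in controls and 478, 533 and 804 in dM1/2 (log2 fold change 2.76, SE 0.46, adjusted p = 0.00487, limma). In bulk libraries, fewer cells of a type and less RNA per cell cannot be told apart.

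Markers of other cells were low, except for fibroblasts and pericytes. The median level per kilobase of exon, over the 6 libraries, was 707 normalized reads for DP markers, 809 for 12 markers of other dermal fibroblasts, 174 for 10 markers of pericytes and smooth muscle, 23.2 for 10 of Schwann cells, 13.1 for 17 of immune cells, 11.04 for 12 of endothelial cells and 9.38 for 10 of adipocytes. It was 4.90 for 17 markers of basal and suprabasal keratinocytes, 1.47 for 16 markers of matrix and hair keratinocytes in the table (17 were listed), 0.964 for 11 of melanocytes and 0.543 for 14 of skeletal muscle. Of the hair keratinocyte markers, 11 were under a mean of 10 normalized reads, among them Krt35, Krt31, Krt83, Krt71 and Shh. The sum of this list was 669, 273 and 735 in controls and 1471, 1571 and 1189 in dM1/2, mostly from Msx2, which DP cells also express, and the members that rose were Gata3 and Dlx3. The fibroblast sum was 186003, 262205 and 78311 in controls and 66228, 81091 and 76803 in dM1/2, with Fbn1 the most abundant. The library labelled P28 control 3 thus lay among the dM1/2 libraries, while controls 1 and 2 lay above. As CPM, control 3 had 4759, above the 4178, 4553 and 4155 of dM1/2 and below the 8848 and 8926 of the other controls. Of the 12 fibroblast markers, 1 rose and 1 fell, and 9 fell without control 3. None fell without control 1, and none rose or fell in any fit without a dM1/2 library. The member that fell was Fbn1, and its call was also lost with the replicate block in limma (adjusted p = 0.0764). The pericyte sum was 11453, 14570 and 6480 in controls and 11890, 14053 and 15744 in dM1/2, with Notch3 the most abundant and Higd1b under a mean of 10. Of 9 tested, 3 rose (1 without dM1/2 2 or dM1/2 3), and 2 fell without control 3. The adipocyte sum was 14038, 13282 and 5880 in controls and 2857, 2943 and 2766 in dM1/2, mostly Lpl, a lipase that fibroblasts make too, while Adipoq, Cidec, Lep, Retn and Cfd were under 10. Of the 5 tested adipocyte markers, 3 fell (Lpl, Plin1 and Pparg), with a median of -1.83, and 3 fell in each fit without a library.

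The sums were 2071, 1757 and 505 in controls and 749, 749.9 and 1083 in dM1/2 for endothelial markers (Tek highest, with Emcn, Cldn5 and Robo4 under 10). For immune markers they were 782, 1311 and 323 in controls and 682, 462 and 2304 in dM1/2, where Csf1r was highest and Itgam, Fcer1g, Cd3e, Cd3g and Cd207 were under 10. Basal keratinocyte markers summed to 456, 469 and 240.1 in controls and 269, 378 and 408 in dM1/2, with Krt10 highest and 7 of 17 under 10. Melanocyte markers summed to 784, 942 and 399 in controls and 556, 556 and 596 in dM1/2, mostly Mitf, with Dct, Tyrp1 and Mlana under 10. Muscle markers reached no more than 256 in any library, and Schwann markers summed to between 4195 and 10013, mostly Pmp22, with 2 of 8 lower (1 without control 1 or any dM1/2 library). In normalized reads, the library labelled P28 control 3 was the lowest control in every list of other cells but that of hair keratinocytes. As CPM it was the highest control in that list and for Schwann and muscle markers, and the lowest in the others. Whether such RNA has a part in any result was not tested, and the larger moves of the counts below when a single library is left out are given beside them.

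The test took in 14126 genes whose mean over the 6 libraries reached 10 normalized reads. A gene near 0 in a group can reach this mean through the other group alone. Of these, 5018 (35.5%) differed between dM1/2 and control with limma at an adjusted p under 0.05. In dM1/2, 2820 rose (20.0% of those tested) and 2198 fell (15.6%), and these shares are the background for every list below. The groups did not overlap in 3957 genes that were higher (28.0%) and 3295 that were lower (23.3%). The rises were larger than the falls. At least 8-fold rises, of 3 or more on the log2 scale, were seen in 391 genes and such falls in 70, although the median over all genes was 0.00. Of the tested genes, 39 had no more than 3 reads in each control and 3 had no more than 3 reads in each dM1/2 library. The share that fell was larger the more abundant the genes. Among genes with a mean between 10 and 100, 19.4% rose and 9.60% fell, and between 100 and 1000 these were 23.5 and 14.9%. Between 1000 and 10000, 12.9% rose and 22.5% fell, and of the 147 genes with at least 10000, 6.12% rose and 32.7% fell. The count of 5018 became 3267 without control 1, 3043 without dM1/2 2 and 3310 without dM1/2 3.

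Cdh8 (ENSMUSG00000036510), a cadherin of neuronal circuits, had 0, 0.64 and 1.52 in controls and 379.5, 523 and 452 in dM1/2 (log2 fold change 8.13, SE 0.41, adjusted p = 0.000161, limma). Prlhr, the receptor of prolactin-releasing peptide, had no read in any control and 301, 210.0 and 118 normalized reads in dM1/2, at least 144-fold higher. Ppp1r1b, the phosphatase inhibitor DARPP-32 of striatal neurons, had no control read either and was at least 104-fold higher. These genes were at or near 0 in each control and clearly present in each dM1/2 library. Lama1, the laminin alpha chain of early basement membranes, had 2.61, 9.61 and 7.21 in controls and 1130.0, 1395 and 984 in dM1/2 (log2 fold change 7.41, SE 0.41, adjusted p = 0.000191, limma). Ptpn5, a tyrosine phosphatase of neurons, had 0, 0 and 1.9 in controls and 169, 188 and 190.3 in dM1/2 (log2 fold change 7.01, SE 0.51, adjusted p = 0.000323, limma). Ibsp, bone sialoprotein, had 1.74, 0 and 0.758 in controls and 131, 159.8 and 385 in dM1/2 (log2 fold change 6.90, SE 0.57, adjusted p = 0.000457, limma). Among the falls, Lrfn2, a synaptic adhesion protein, had 235, 137 and 454 in controls and 12.4, 9.43 and 2.41 in dM1/2 (log2 fold change -4.98, SE 0.64, adjusted p = 0.00171, limma). Cnr1, the cannabinoid receptor of neurons, had 561, 981 and 944 in controls and 14.1, 39 and 29.3 in dM1/2 (log2 fold change -4.93, SE 0.40, adjusted p = 0.000436, limma). Kcnc4, a potassium channel subunit, had 473, 221 and 940.1 in controls and 13.2, 19.3 and 18.5 in dM1/2 (log2 fold change -4.70, SE 0.50, adjusted p = 0.000952, limma). Aqp4, a water channel, fell in the same way, with 191, 40.3 and 136 in controls and 2.13, 5.57 and 3.61 in dM1/2 (log2 fold change -4.50, SE 0.63, adjusted p = 0.00242, limma). In all of these genes the groups were far apart, and the controls of Lrfn2, Kcnc4 and Aqp4 spread over more than 3-fold with control 2 lowest.

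**Figure D1:**
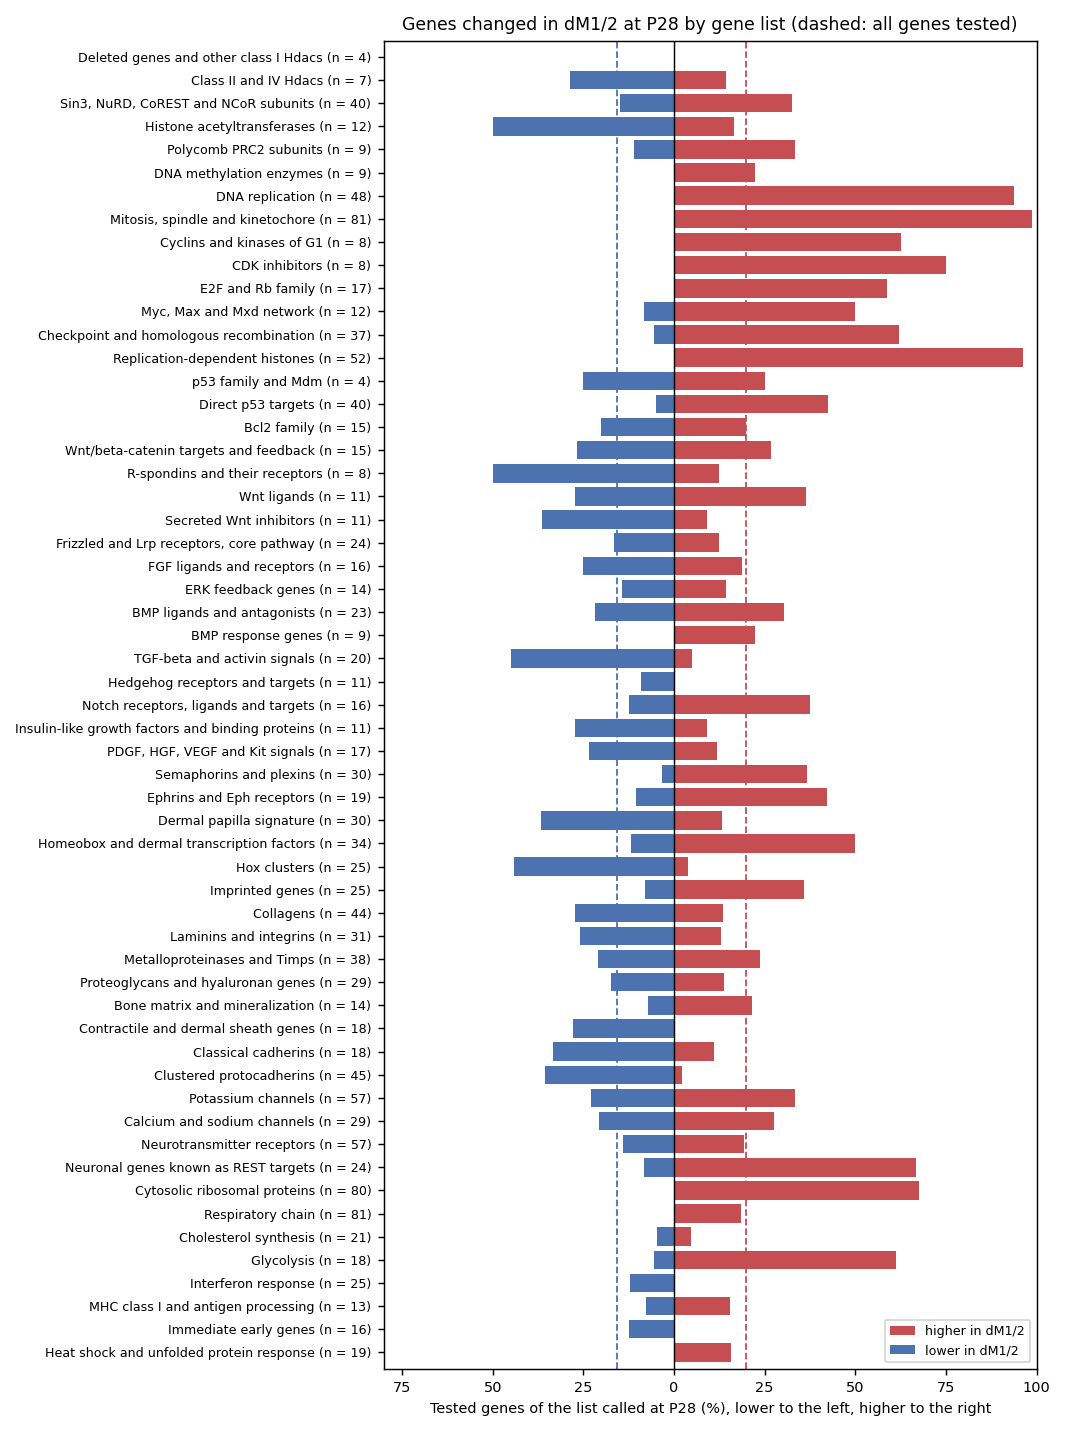
Share of the tested genes of each gene list that rose (red, to the right) or fell (blue, to the left) in dM1/2 at P28 (limma, adjusted p under 0.05), with dashed lines at the shares among all tested genes, 20.0 and 15.6%. The bars of mitosis, histone and replication genes reach above 90% to the right, and those of histone acetyltransferases and R-spondins reach 50% to the left.

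Leaving aside the gene families by name given at the end, the lists of mitosis, replication and histones had the largest shares of rises. Of 81 genes of mitosis, spindle and kinetochore, 80 rose and none fell, with a median log2 fold change of 3.07 against 0.00 for all genes. Of 48 DNA replication genes, 45 rose (median 1.86), and of 52 replication-dependent histone genes, which supply histones in S phase, 50 rose (median 3.30). These counts stayed at or above 78, 41 and 50 in each of the 6 fits that left out a library. Cdk1, the kinase that starts mitosis, had 51.8, 16 and 33.4 in controls and 583, 659.9 and 644 in dM1/2 (log2 fold change 4.33, SE 0.39, adjusted p = 0.000612, limma). Ccnb1, its partner cyclin B1, had 70, 46.1 and 27.3 in controls and 604, 614 and 649 in dM1/2 (log2 fold change 3.77, SE 0.33, adjusted p = 0.000499, limma). Top2a, the topoisomerase that untangles chromosomes, had 269.7, 183 and 193 in controls and 2028, 2361 and 2748 in dM1/2 (log2 fold change 3.47, SE 0.19, adjusted p = 0.000191, limma). Mki67, the source of the Ki-67 antigen of dividing cells, had 271, 274 and 198 in controls and 2022, 1668 and 2155 in dM1/2 (log2 fold change 2.98, SE 0.18, adjusted p = 0.000205, limma). For each of these genes the dM1/2 libraries lay close together and far above all controls. The controls were not at 0 for any of them.

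Among replication genes, Mcm2, a subunit of the replicative helicase, had 84.4, 96.7 and 70.9 in controls and 671, 745 and 988 in dM1/2 (log2 fold change 3.23, SE 0.20, adjusted p = 0.000227, limma). Gmnn, geminin, which keeps origins from firing again, had 8.26, 7.04 and 29.2 in controls and 205, 284 and 233 in dM1/2 (log2 fold change 4.19, SE 0.51, adjusted p = 0.00148, limma). Pcna, the sliding clamp, changed less, with 420.2, 511 and 462 in controls and 779.5, 844 and 907 in dM1/2 (log2 fold change 0.86, SE 0.13, adjusted p = 0.00303, limma), yet no dM1/2 library was as low as a control. Among histones, the linker histone gene Hist1h1a had 76.6, 55.7 and 129 in controls and 1722, 1934 and 1731 in dM1/2 (log2 fold change 4.43, SE 0.29, adjusted p = 0.000261, limma) and Hist1h3g had 10.4, 1.92 and 8.34 in controls and 152, 161 and 152 in dM1/2 (log2 fold change 4.52, SE 0.53, adjusted p = 0.00126, limma). These histone transcripts lack a poly(A) tail, and the libraries were made from total RNA by ribosomal depletion, which does not select for the tail.

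Genes that mitotic cells share are often bound through a CHR element and CCAAT boxes, and S-phase histone genes through CCAAT boxes and a TATA box, so the promoters of Cdk1, Ccnb1, Top2a and Hist1h1a are shown as examples of members that rose together. They are the 250 bases before the start of transcription in RefSeq (GRCm38.p6), at chr10:69352913-69353162 (minus strand), chr13:100786487-100786736 (minus strand), chr11:99024190-99024439 (minus strand) and chr13:23763418-23763667 (plus strand). Capitals mark matches on either strand. In the promoters of Cdk1, Ccnb1 and Top2a they mark the CHR element (TTTGAA, or its variant TTTAAA, which reads the same on both strands) and the CCAAT box (CCAAT). In that of Hist1h1a they mark the CCAAT box and the TATA box (TATAAA).
Cdk1: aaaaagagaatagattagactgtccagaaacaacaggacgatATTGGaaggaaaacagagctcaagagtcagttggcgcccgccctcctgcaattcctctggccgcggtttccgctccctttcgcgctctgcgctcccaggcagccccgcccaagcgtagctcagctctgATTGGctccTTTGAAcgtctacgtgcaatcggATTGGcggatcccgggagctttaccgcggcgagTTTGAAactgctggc
Ccnb1: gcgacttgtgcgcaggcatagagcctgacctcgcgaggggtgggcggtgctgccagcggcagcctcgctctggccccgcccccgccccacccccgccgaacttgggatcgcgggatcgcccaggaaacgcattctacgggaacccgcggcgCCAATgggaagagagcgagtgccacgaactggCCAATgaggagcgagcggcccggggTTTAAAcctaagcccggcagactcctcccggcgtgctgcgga
Top2a: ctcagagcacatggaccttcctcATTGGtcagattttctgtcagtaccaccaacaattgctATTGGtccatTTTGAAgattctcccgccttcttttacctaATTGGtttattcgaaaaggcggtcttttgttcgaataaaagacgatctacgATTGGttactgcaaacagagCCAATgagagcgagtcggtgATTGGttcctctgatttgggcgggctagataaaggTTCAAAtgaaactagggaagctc
Hist1h1a: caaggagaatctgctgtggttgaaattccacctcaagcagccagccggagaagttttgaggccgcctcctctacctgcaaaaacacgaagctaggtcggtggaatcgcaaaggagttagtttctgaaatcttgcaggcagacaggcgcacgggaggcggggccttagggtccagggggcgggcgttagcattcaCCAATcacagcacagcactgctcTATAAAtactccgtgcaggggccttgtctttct
A promoter was found for 68 of the 81 mitosis genes, and 26 of these (38.2%) held both a CHR element and a CCAAT box, against 6.83% of 10998 promoters of tested genes and 9.001% of 26986 promoters in all. The pair was not particular to mitosis genes, as 30 of 47 histone promoters (63.8%) held it too. Of the histone promoters, 41 (87.2%) held a CCAAT box and 25 (53.2%) a TATA box, against 36.7 and 6.60% for tested genes and 34.5 and 12.97% for all promoters. An E2F element (TTTCGCGC, TTTGGCGC, TTTCCCGC or TTTGCCGC) was in 8 of 38 replication promoters (21.1%), 8 of the 47 histone promoters and 6 of the 68 of mitosis genes (8.82%), against 3.40% for tested genes and 1.92% for all. A match is a run of letters and does not show binding, and the motifs were chosen after the values were seen.

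Of 8 cyclins and kinases of G1, 5 rose and none fell. Ccnd1, cyclin D1, had 374, 644 and 251 in controls and 5733, 5435 and 4479 in dM1/2 (log2 fold change 3.72, SE 0.33, adjusted p = 0.000525, limma). Ccne1, cyclin E1, had 30.9, 63.4 and 40.2 in controls and 383, 439.7 and 426 in dM1/2 (log2 fold change 3.24, SE 0.28, adjusted p = 0.000469, limma). Mycn, a growth-promoting transcription factor, went from under 10 normalized reads in each control to above 250 in each dM1/2 library, with 5.22, 7.04 and 0.758 in controls and 272, 279.8 and 251 in dM1/2 (log2 fold change 5.91, SE 0.57, adjusted p = 0.0007, limma). Of 17 E2F and Rb family genes, 10 rose, a count that was 6 without dM1/2 1 and 5 without dM1/2 2 or dM1/2 3. The largest was E2f8, a repressor that peaks in S phase, with 23.1, 27.5 and 9.1 in controls and 154, 148 and 194 in dM1/2 (log2 fold change 3.12, SE 0.42, adjusted p = 0.002, limma). Inhibitors of the cycle rose along with its drivers, 6 of 8 tested. Cdkn1a, p21, had 673, 598 and 148 in controls and 1796, 2509 and 2162 in dM1/2 (log2 fold change 2.45, SE 0.55, adjusted p = 0.0143, limma), and its call was lost without dM1/2 2 (adjusted p = 0.0602, limma). Cdkn2a, the locus of p16 and p19, had 3.91, 6.4 and 2.28 in controls and 35.4, 26.6 and 22.9 in dM1/2 (log2 fold change 2.55, SE 0.47, adjusted p = 0.00659, limma). Cdkn1b, p27, had 1369, 1467 and 1084 in controls and 2151, 2357 and 2366 in dM1/2 (log2 fold change 0.82, SE 0.14, adjusted p = 0.00568, limma). Cdkn1c, p57, overlapped between the groups, with 1095, 1059 and 582 in controls and 993, 1465 and 1177 in dM1/2. Of 37 checkpoint and homologous recombination genes, 23 rose, led by Exo1 (log2 fold change 3.67) and Fanci (3.63), and Nbn (-0.98) and Rad50 (-0.51), partners in the complex that binds broken ends, fell. The calls of Nbn and Rad50 were each lost without some library, that of Nbn without control 1, dM1/2 1 or dM1/2 2 (adjusted p from 0.0552 to 0.0651, limma) and that of Rad50 without control 1, dM1/2 2 or dM1/2 3 (adjusted p from 0.0505 to 0.0831, limma). With the replicate block in limma they had adjusted p = 0.0533 and 0.0724.

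Of 40 direct p53 targets, 17 rose and 2 fell, with a median of 0.85. The rises numbered 12 without dM1/2 2, and the falls 6 without the library labelled P28 control 3 and 1 without control 1 or dM1/2 2. Trp53 itself, the gene of p53, had 825, 811 and 742 in controls and 1549, 1352 and 1290.3 in dM1/2 (log2 fold change 0.81, SE 0.12, adjusted p = 0.00286, limma), with every dM1/2 library higher. Mdm2, its main inhibitor and a target, had 583, 635 and 496 in controls and 598, 496 and 562 in dM1/2 and overlapped. Bbc3, the proapoptotic protein PUMA, had 164, 167 and 141 in controls and 432, 430.2 and 497 in dM1/2 (log2 fold change 1.52, SE 0.15, adjusted p = 0.000691, limma). Bax, which permeabilizes mitochondria, had 383, 367 and 374 in controls and 623, 921 and 711 in dM1/2 (log2 fold change 0.98, SE 0.16, adjusted p = 0.00469, limma). The targets with the largest rises, Psrc1 (log2 fold change 4.79) and Gtse1 (4.00), work on the spindle and at the G2 checkpoint, and Gtse1 is also in the mitosis list. Plk2, a kinase of the stress response, fell with 2326, 1406 and 2591 in controls and 740.3, 772 and 888 in dM1/2 (log2 fold change -1.35, SE 0.24, adjusted p = 0.00556, limma). In the Bcl2 family, 3 of 15 genes rose, all of which promote apoptosis (Bbc3, Bcl2l11 and Bax), and 3 fell, shares near the background, while 5 rose without control 2. Bcl2l1, the survival factor Bcl-xL, had 665, 548 and 727 in controls and 259, 309 and 283 in dM1/2 (log2 fold change -1.18, SE 0.15, adjusted p = 0.0018, limma). Bcl2l2, the survival factor Bcl-w, had 906, 871 and 950.4 in controls and 527, 507 and 603 in dM1/2 (log2 fold change -0.74, SE 0.12, adjusted p = 0.004, limma). Bak1, which also fell, is proapoptotic.

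Chromatin genes moved in both directions. Of 7 class II and IV Hdacs, Hdac6, a cytoplasmic tubulin deacetylase, rose with 315, 266 and 407 in controls and 1046, 884 and 952 in dM1/2 (log2 fold change 1.56, SE 0.18, adjusted p = 0.00115, limma). Hdac4 (log2 fold change -1.08) and Hdac10 (-0.58) fell, and both calls were lost with edgeR (adjusted p = 0.0504 and 0.0577) and without single libraries. That of Hdac4 was lost without control 1, dM1/2 2 or dM1/2 3 (adjusted p from 0.0721 to 0.149, limma), and that of Hdac10 without control 1, control 3, dM1/2 2 or dM1/2 3 (adjusted p from 0.0625 to 0.146, limma) and with the replicate block in limma (adjusted p = 0.0951). Of 40 subunits of the Sin3, NuRD, CoREST and NCoR complexes, 13 rose and 6 fell, with falls numbering 2 without control 1 or dM1/2 2. Rcor2, a CoREST scaffold of stem cells and neurons, had 53.5, 96.7 and 44 in controls and 626, 638 and 573 in dM1/2 (log2 fold change 3.30, SE 0.29, adjusted p = 0.000547, limma). Sap30, a Sin3 subunit, had 44.8, 29.5 and 28.1 in controls and 172, 209 and 172 in dM1/2 (log2 fold change 2.43, SE 0.25, adjusted p = 0.00084, limma). Of 12 histone acetyltransferases, the enzymes that oppose Hdacs, 6 fell (50%) and 2 rose. Kat6b had 2858, 2112 and 3190.5 in controls and 1178, 1071 and 1218 in dM1/2 (log2 fold change -1.22, SE 0.17, adjusted p = 0.00246, limma) and Ncoa3 had 4943, 3619 and 5785 in controls and 2434, 1370.0 and 1691 in dM1/2 (log2 fold change -1.40, SE 0.26, adjusted p = 0.00698, limma). The members that rose were Hat1, which acetylates newly made histones, with 161, 156 and 188 in controls and 496, 531 and 516 in dM1/2 (log2 fold change 1.61, SE 0.14, adjusted p = 0.000467, limma), and Kat2a (log2 fold change 0.69). Of 9 Polycomb PRC2 subunits, 3 rose and 1 fell. Ezh2, the methyltransferase of dividing cells, had 251, 266 and 205 in controls and 631, 503 and 527 in dM1/2 (log2 fold change 1.20, SE 0.16, adjusted p = 0.00203, limma), and its relative Ezh1, which predominates in resting cells, had 989.6, 891 and 904 in controls and 447, 498 and 424 in dM1/2 (log2 fold change -1.03, SE 0.12, adjusted p = 0.00122, limma). Every Ezh2 value in dM1/2 was above and every Ezh1 value below all controls. Of 9 DNA methylation enzymes, those that copy methylation after replication rose, Dnmt1 with 699, 644 and 915 in controls and 1699.8, 1702 and 1764 in dM1/2 (log2 fold change 1.21, SE 0.15, adjusted p = 0.00159, limma) and its guide Uhrf1 by 3.56.

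R-spondins bind Lgr receptors and raise Wnt signalling in the cells that receive them. All 4 R-spondins fell. Rspo2 had 7485, 3467 and 10106 in controls and 1415, 834 and 858 in dM1/2 (log2 fold change -2.67, SE 0.41, adjusted p = 0.00339, limma), Rspo3 had 10816, 6638 and 12189 in controls and 2849, 2211 and 3323 in dM1/2 (log2 fold change -1.79, SE 0.27, adjusted p = 0.00306, limma) and Rspo4 had 16691, 16662 and 37365 in controls and 6097, 4232 and 3683 in dM1/2 (log2 fold change -2.26, SE 0.37, adjusted p = 0.00419, limma). In each the groups were apart, and control 2 was the lowest control. Rspo1 had 4806, 4010.4 and 5544 in controls and 3129.6, 2929 and 3160.3 in dM1/2 (log2 fold change -0.63, SE 0.15, adjusted p = 0.0181, limma), the smallest change, and its call was lost without control 1, dM1/2 2 or dM1/2 3 (adjusted p from 0.0604 to 0.0742, limma). Lgr6, an R-spondin receptor, rose with 147, 323 and 102 in controls and 1314, 2389 and 1523 in dM1/2 (log2 fold change 3.31, SE 0.43, adjusted p = 0.00184, limma).

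Of 11 Wnt ligands, 4 rose and 3 fell. Wnt6 had 84.4, 105 and 119 in controls and 1322, 1896 and 1435 in dM1/2 (log2 fold change 3.90, SE 0.20, adjusted p = 0.000161, limma) and Wnt4 had 39.6, 51.2 and 78.9 in controls and 705, 867 and 890.0 in dM1/2 (log2 fold change 3.89, SE 0.27, adjusted p = 0.000294, limma). Wnt5b, a ligand outside the beta-catenin pathway, had 846, 750.0 and 1171 in controls and 293, 294 and 297 in dM1/2 (log2 fold change -1.62, SE 0.18, adjusted p = 0.00107, limma). The number that fell was 1 in each fit without control 1 or a dM1/2 library and 5 without the library labelled P28 control 3. The median of the list was 0.02, and without single libraries it ranged from -0.61 (without control 3) to 0.75 (without control 2). Secreted Wnt inhibitors fell in 4 of 11 genes. Sostdc1 had 28784, 14252 and 31311 in controls and 2231, 2865 and 2501 in dM1/2 (log2 fold change -3.22, SE 0.31, adjusted p = 0.000718, limma), Sfrp1 had 50271, 38464 and 75205 in controls and 6743, 6328 and 6397 in dM1/2 (log2 fold change -3.02, SE 0.28, adjusted p = 0.000636, limma) and Sfrp2 had 11076, 6257 and 7493 in controls and 2084, 2879.6 and 1772 in dM1/2 (log2 fold change -1.87, SE 0.27, adjusted p = 0.00252, limma). All dM1/2 values of these genes lay far below all controls. Wif1, another inhibitor, overlapped with 51282, 31546 and 109697 in controls and 45694, 49495 and 45177 in dM1/2. Dkk1 rose to 26.4, 54.0 and 30.5 from 1.74, 5.76 and 1.52 normalized reads (log2 fold change 3.33, SE 0.56, adjusted p = 0.0048, limma). Of the receptors and core proteins, 3 of 24 rose (1 without dM1/2 2) and 4 fell, and the receptor Fzd1 had 11477, 8544 and 17944 in controls and 2867, 2906 and 3009 in dM1/2 (log2 fold change -2.04, SE 0.27, adjusted p = 0.00181, limma). Targets and feedback genes split, with 4 of 15 higher (Ccnd1, Dkk1, Nkd1 and Tcf7) and 4 lower. Axin2, the common feedback target, had 3046, 2548 and 4616 in controls and 2463, 2059 and 1996 in dM1/2, lower in each dM1/2 library but not past the test (log2 fold change -0.61, SE 0.23, adjusted p = 0.0813, limma). The log2 fold change was -0.36 without control 3, and Axin2 passed without control 2 (adjusted p = 0.0267, limma) and with DESeq2 (adjusted p = 0.0334). Lef1, the nuclear partner of beta-catenin, had 3051, 2086 and 5321 in controls and 4576, 3315 and 3180.3 in dM1/2 and overlapped, as did Ctnnb1, beta-catenin, with 8308, 7947 and 9339 in controls and 8217, 9035 and 10315 in dM1/2.

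**Figure D2:**
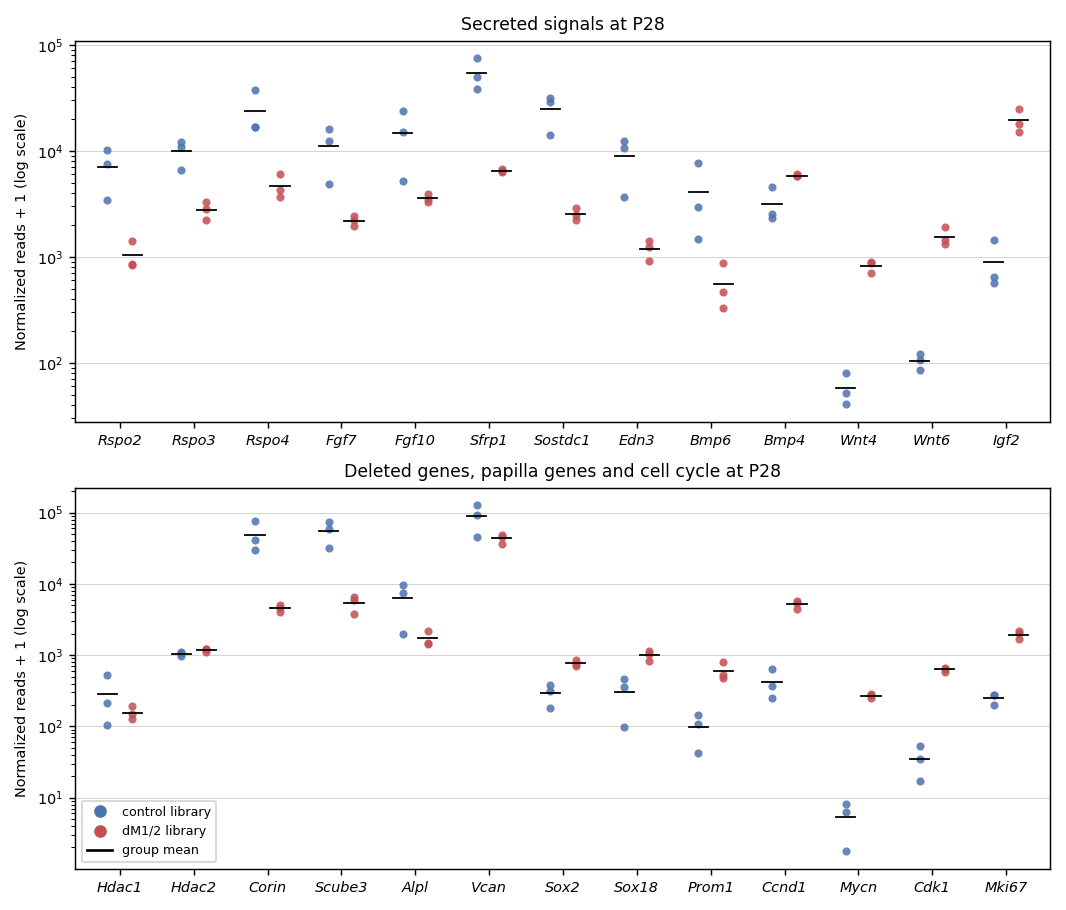
Normalized reads plus 1 (log axis) of secreted signals (top) and of Hdac1, Hdac2, papilla genes and cell-cycle genes (bottom) in each control (blue) and dM1/2 library (red) at P28, with the group mean as a black bar. R-spondins, Fgf7, Fgf10, Sfrp1, Sostdc1, Edn3, Corin and Scube3 lie lower in every dM1/2 library, and Wnt4, Wnt6, Igf2, Mycn, Cdk1 and Ccnd1 lie higher.

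Fgf7 and Fgf10, ligands of the DP that act on the overlying epithelium, fell. Fgf7 had 12442, 4908 and 15936 in controls and 2413, 1955 and 2201 in dM1/2 (log2 fold change -2.18, SE 0.41, adjusted p = 0.00758, limma). Fgf10 had 15087, 5222 and 23752 in controls and 3909.5, 3257 and 3492 in dM1/2 (log2 fold change -1.80, SE 0.51, adjusted p = 0.0324, limma), and its call was lost without control 1, dM1/2 1, dM1/2 2 or dM1/2 3 (adjusted p from 0.0849 to 0.107, limma). Over all 16 FGF ligands and receptors, 3 rose and 4 fell, and 2 fell in each fit without control 1 or a dM1/2 library and 6 without control 2. Fgf15, an FGF of embryonic brain and gut, had at most 1 read per control and 28.6, 23.1 and 37.7 normalized reads in dM1/2, at least 20.5-fold higher. Among 14 feedback genes of the ERK pathway, which FGFs activate, Dusp6 rose with 485, 459 and 458 in controls and 2005, 2735 and 1978 in dM1/2 (log2 fold change 2.24, SE 0.15, adjusted p = 0.000293, limma) and Dusp7 rose by 0.56. Dusp4 fell with 4006, 4244 and 7035 in controls and 969.7, 779 and 969.5 in dM1/2 (log2 fold change -2.45, SE 0.23, adjusted p = 0.000691, limma), and Spry1 fell by 0.78 on the log2 scale, a call lost without control 1, dM1/2 1, dM1/2 2 or dM1/2 3 (adjusted p from 0.0534 to 0.0979, limma).

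Of 23 BMP ligands and antagonists, 7 rose and 5 fell, with rises numbering 4 without control 1, dM1/2 1 or dM1/2 2 and falls 8 without the library labelled P28 control 3. The median of 0.20 turned to -0.37 without that library and to -0.02 without dM1/2 1, and it was 0.03 without control 2, 0.09 without dM1/2 2 and 0.10 without dM1/2 3. Bmp6 had 2970.4, 1458 and 7721 in controls and 869.9, 327 and 459.7 in dM1/2 (log2 fold change -2.66, SE 0.62, adjusted p = 0.0163, limma) and Bmp4 had 2535, 2307 and 4527 in controls and 5766, 5741 and 6053 in dM1/2 (log2 fold change 0.97, SE 0.26, adjusted p = 0.025, limma). The call of Bmp6 was lost without dM1/2 2 or dM1/2 3 (adjusted p from 0.0575 to 0.0679, limma), and that of Bmp4 without control 1, dM1/2 1, dM1/2 2 or dM1/2 3 (adjusted p from 0.0711 to 0.0925, limma). Grem1, an antagonist, had 98.3, 939.5 and 62.2 in controls and 3113, 3452 and 2987 in dM1/2 (log2 fold change 4.14, SE 0.92, adjusted p = 0.0137, limma), with control 2 far above the other controls and still below all dM1/2 libraries, and its call was lost without control 1, dM1/2 1 or dM1/2 2 (adjusted p from 0.0516 to 0.0555, limma). Chrdl2, another antagonist, had at most 1 read per control and was at least 52.7-fold higher. Nog, noggin, had 978, 633 and 1039.9 in controls and 708, 559.6 and 647 in dM1/2, overlapped, and passed only without control 2 (adjusted p = 0.0139, limma). Of 9 BMP response genes 2 rose, the homeobox gene Msx1 with 189, 101 and 73.2 in controls and 603, 772 and 456 in dM1/2 (log2 fold change 2.41, SE 0.37, adjusted p = 0.00331, limma) and Smad9 (log2 fold change 1.94), and none fell, except that 3 fell without control 2.

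TGF-beta and activin genes leaned down, with 9 of 20 lower (45.0%), 1 higher and a median of -0.57. The falls numbered 4 without control 1, 3 without dM1/2 2 and 4 without dM1/2 3. Ltbp3, which stores latent TGF-beta in matrix, had 8652, 6904 and 9455 in controls and 2178, 2542 and 2677 in dM1/2 (log2 fold change -1.75, SE 0.17, adjusted p = 0.000691, limma). Inhba, the activin A chain, had 6819, 7108 and 11362 in controls and 4496, 3957 and 3770.5 in dM1/2 (log2 fold change -1.01, SE 0.22, adjusted p = 0.013, limma), a call lost without dM1/2 2 or dM1/2 3 (adjusted p from 0.0553 to 0.0554, limma) and in the fit over all 24 libraries (adjusted p = 0.0603). Tgfb1 was the exception, with 627, 766 and 856 in controls and 1590.2, 1949 and 1930.2 in dM1/2 (log2 fold change 1.29, SE 0.16, adjusted p = 0.00145, limma). Of 11 Hedgehog receptors and targets, Gli2 fell (log2 fold change -0.84) and none rose. Its call was lost without dM1/2 2 or dM1/2 3 (adjusted p from 0.0524 to 0.0551, limma), and 4 genes fell without control 2 or the library labelled P28 control 3. Ptch1, the receptor and target, had 9730.3, 7523 and 16223 in controls and 10443, 6092 and 9906 in dM1/2, and Gli1, a direct readout of the pathway, had 1241, 893 and 1532 in controls and 1593, 1220.4 and 1464 in dM1/2. Both overlapped.

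Of 16 Notch pathway genes, 6 rose and 2 fell. The falls numbered 5 without control 2, and the rises 4 without any 1 of the dM1/2 libraries. Notch4 had 881, 554 and 448 in controls and 50.3, 59.6 and 55.8 in dM1/2 (log2 fold change -3.43, SE 0.26, adjusted p = 0.000373, limma) and Notch2 had 6382, 6335 and 5492 in controls and 2969, 2581 and 3000.5 in dM1/2 (log2 fold change -1.09, SE 0.13, adjusted p = 0.00147, limma). Notch3 had 2405, 2126 and 2428 in controls and 4802, 4325 and 4386 in dM1/2 (log2 fold change 0.96, SE 0.12, adjusted p = 0.00159, limma), so that receptors of the same pathway moved apart. Among insulin-like growth factor genes, Igf2, a growth factor of the fetus, had 1435, 567 and 647 in controls and 18084, 24877 and 15229.6 in dM1/2 (log2 fold change 4.55, SE 0.37, adjusted p = 0.000436, limma). Igf1, the main form after birth, had 7064, 8880.4 and 5746 in controls and 4181, 3660.0 and 3335 in dM1/2 (log2 fold change -0.94, SE 0.19, adjusted p = 0.0102, limma). Every Igf2 value in dM1/2 was at least 10 times every control value. Edn3, endothelin 3, a signal to melanocytes, had 10727, 3658 and 12431 in controls and 1231, 912 and 1406 in dM1/2 (log2 fold change -2.76, SE 0.46, adjusted p = 0.00461, limma). Hgf, hepatocyte growth factor, had 82.6, 91.6 and 84.9 in controls and 35, 17.6 and 16.1 in dM1/2 (log2 fold change -1.96, SE 0.34, adjusted p = 0.00561, limma). These are 2 of 4 falls among 17 PDGF, HGF, VEGF and Kit genes, and 8 fell without the library labelled P28 control 3. Flt1, a VEGF receptor of endothelial cells, rose from 77.4, 25.6 and 3.41 to 677, 647 and 709 (log2 fold change 5.02, SE 0.94, adjusted p = 0.00709, limma).

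Among called guidance genes, more rose than fell. Of 30 semaphorins and plexins, 11 rose and 1 fell, although 6 fell without the library labelled P28 control 3 and 3 without control 2. The median of this list was only 0.13, and 0.03 without control 3. Sema7a had 57, 70.4 and 41.7 in controls and 430.3, 546 and 668 in dM1/2 (log2 fold change 3.27, SE 0.26, adjusted p = 0.000401, limma), and its receptor Plxnc1 had 81.3, 57 and 35.6 in controls and 478, 425 and 367 in dM1/2 (log2 fold change 2.92, SE 0.31, adjusted p = 0.000903, limma). Sema3g fell with 739, 692 and 705 in controls and 165, 240.4 and 296 in dM1/2 (log2 fold change -1.64, SE 0.22, adjusted p = 0.00197, limma). Of 19 ephrins and Eph receptors, 8 rose and 2 fell. The ligand Efna3 had 42.2, 18.6 and 65.6 in controls and 1286, 1652 and 1249 in dM1/2 (log2 fold change 5.18, SE 0.43, adjusted p = 0.000439, limma). Epha3, a receptor, had 702, 708 and 564 in controls and 199.6, 163 and 253 in dM1/2 (log2 fold change -1.69, SE 0.20, adjusted p = 0.00122, limma), and Efna5, a ligand, fell (log2 fold change -1.48). The rises numbered 5 without dM1/2 2 or dM1/2 3 and the falls 4 without control 2.

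Of 30 genes of the DP signature, 11 fell (36.7%) and 4 rose (13.3%), with a median of -0.93, or -0.56 without control 3. Without control 2, the lowest control for most of them, 20 fell, and the rises numbered 2 without control 1, dM1/2 2 or dM1/2 3. Scube3, a secreted glycoprotein made by the DP, had 59658, 31753 and 74228 in controls and 5869, 3748 and 6499 in dM1/2 (log2 fold change -3.31, SE 0.38, adjusted p = 0.00113, limma). Homeobox and dermal transcription factors moved the other way, with 17 of 34 higher (50%), 4 lower and a median of 0.96. Dlx2, a homeobox gene of craniofacial mesenchyme and forebrain, had no read in any control and 38.4, 77.1 and 28.9 normalized reads in dM1/2, at least 33.1-fold higher. Dlx5 had 6.09, 2.56 and 2.28 in controls and 74.6, 70.3 and 53 in dM1/2 (log2 fold change 3.93, SE 0.43, adjusted p = 0.00103, limma). Runx2, the master regulator of bone, had 472, 523 and 388 in controls and 902, 879 and 845 in dM1/2 (log2 fold change 0.93, SE 0.14, adjusted p = 0.00317, limma). Sox18, which marks the forming DP, had 357, 96.7 and 459 in controls and 1034, 822 and 1135 in dM1/2 (log2 fold change 1.97, SE 0.55, adjusted p = 0.0301, limma), with 1.29 without control 2, and its call was lost without control 1, dM1/2 1, dM1/2 2 or dM1/2 3 (adjusted p from 0.0506 to 0.0942, limma). Pax1, a factor of the skeletal mesenchyme, fell with 1722, 618 and 3258 in controls and 276, 201 and 108 in dM1/2 (log2 fold change -3.05, SE 0.62, adjusted p = 0.00962, limma), and the falls of this list numbered 2 without control 1 or dM1/2 2. Alx4, a homeobox gene of the DP, had 14857, 8968 and 23149.9 in controls and 9804, 6819 and 7492 in dM1/2 and overlapped (log2 fold change -0.87, SE 0.35, adjusted p = 0.0981, limma). The log2 fold change was -0.54 without control 3, and Alx4 passed without control 2 (adjusted p = 0.0143, limma), with DESeq2 (adjusted p = 0.017) and in the limma fit over all 24 libraries (adjusted p = 0.0216).

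Hox genes, which record position along the body, fell in 11 of 25 cases (44.0%) and 1 rose. The falls numbered 7 without control 1 and 6 without dM1/2 2. Hoxb3 had 319, 141 and 328 in controls and 57.6, 54 and 51.8 in dM1/2 (log2 fold change -2.15, SE 0.34, adjusted p = 0.00393, limma). The gene that rose, Hoxc11, lies near the 5' end of its cluster and had 15.7, 19.2 and 21.6 in controls and 39.2, 81.8 and 63.4 in dM1/2 (log2 fold change 1.61, SE 0.35, adjusted p = 0.0126, limma), a call lost without dM1/2 2 or dM1/2 3 (adjusted p from 0.0525 to 0.0586, limma). Of 25 imprinted genes, which are read from a single parental allele, 9 rose and 2 fell, with rises numbering 5 without dM1/2 2 or dM1/2 3 and falls 4 without the library labelled P28 control 3 and 1 without control 1, dM1/2 2 or dM1/2 3. Nnat, neuronatin, had 22.6, 37.1 and 63 in controls and 1399, 1666 and 1465 in dM1/2 (log2 fold change 5.29, SE 0.34, adjusted p = 0.000258, limma), and Igf2, above, was the next. Sgce, a sarcoglycan, fell with 1517, 1400.0 and 1314 in controls and 475, 550.2 and 600.2 in dM1/2 (log2 fold change -1.38, SE 0.13, adjusted p = 0.000691, limma).

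Counts of matrix genes moved with single libraries. Of 44 collagen genes, 12 fell (27.3%) and 6 rose, but 20 fell without the library labelled P28 control 3 and 6 without dM1/2 2. Col14a1, a collagen that sits on fibrils, had 26312, 29456 and 20945 in controls and 5787, 7452 and 6504 in dM1/2 (log2 fold change -1.95, SE 0.21, adjusted p = 0.0009, limma), and in this gene every control was above every dM1/2 library by over 2-fold. Among the rises, Col9a2, a chain of cartilage collagen, had 275, 51.9 and 184 in controls and 2187, 2607 and 2854 in dM1/2 (log2 fold change 4.19, SE 0.56, adjusted p = 0.00201, limma). Col6a4 had 12.6, 4.48 and 23.1 in controls and 262, 287 and 385 in dM1/2 (log2 fold change 4.66, SE 0.53, adjusted p = 0.00113, limma). Of 31 laminins and integrins, 4 rose and 8 fell, and 15 fell without the library labelled P28 control 3 and 5 without control 1 or dM1/2 3. Lama3, a chain of epithelial laminin, had 73.1, 54.4 and 47.4 in controls and 1263, 1921 and 1957 in dM1/2 (log2 fold change 4.85, SE 0.24, adjusted p = 0.000161, limma). Itga8, an integrin of the dermal sheath and of contractile mesenchyme, had 1361, 1639 and 2029.7 in controls and 297, 325 and 501 in dM1/2 (log2 fold change -2.18, SE 0.24, adjusted p = 0.00103, limma). Of 38 metalloproteinase and Timp genes, 9 rose and 8 fell, and 18 fell without the library labelled P28 control 3, while 3 to 5 fell without any other library. Mmp9, gelatinase B, rose from 11.7, 1.28 and 0 to 70.4, 236 and 243 (log2 fold change 5.71, SE 0.98, adjusted p = 0.00519, limma). Of 29 proteoglycan and hyaluronan genes, 4 rose (2 without dM1/2 2 or dM1/2 3) and 5 fell (10 without the library labelled P28 control 3). Gpc1, a glypican, had 1901, 1022 and 2647 in controls and 6531, 10444 and 7769 in dM1/2 (log2 fold change 2.23, SE 0.36, adjusted p = 0.00402, limma), and its relative Gpc6 had 5619, 4422 and 7369 in controls and 1054, 1079 and 982 in dM1/2 (log2 fold change -2.45, SE 0.19, adjusted p = 0.000404, limma), so that coreceptors of the same family moved apart.

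Contractile genes had 5 falls of 18 and no rise, with 8 falls without the library labelled P28 control 3 and 1 rise without control 2. Myl9, a myosin light chain, had 2786, 2032 and 3051 in controls and 464, 826 and 1223 in dM1/2 (log2 fold change -1.73, SE 0.35, adjusted p = 0.00948, limma). Acta2, smooth muscle actin, had 3476, 3554 and 594 in controls and 1007, 1583 and 2452 in dM1/2 and overlapped, with the same library lowest, and it passed without control 3 (adjusted p = 0.0236, limma). Of 14 bone matrix genes, 3 rose and 1 fell, with 3 falls without control 2 and 4 without the library labelled P28 control 3. Ibsp, given above, had the largest rise, and Ank, a pyrophosphate transporter that restrains mineral, had 581, 712 and 645 in controls and 363, 470.1 and 450.4 in dM1/2 (log2 fold change -0.60, SE 0.15, adjusted p = 0.0214, limma), a call lost without dM1/2 3 (adjusted p = 0.0571, limma). Of 18 cadherins, 6 fell and 2 rose, with falls numbering 3 without dM1/2 1 or dM1/2 2 and 4 without control 1, and rises 1 without control 1 or any dM1/2 library and 3 without control 3. Cdh6 had 1160.1, 1015 and 2362 in controls and 135, 96.8 and 131 in dM1/2 (log2 fold change -3.54, SE 0.33, adjusted p = 0.000653, limma) and Cdh19 had 418, 188 and 218 in controls and 32.4, 9.43 and 12.4 in dM1/2 (log2 fold change -3.95, SE 0.51, adjusted p = 0.00176, limma). Clustered protocadherins, which give neurons individual surfaces, fell in 16 of 45 cases (35.6%) and rose in 1. Pcdhga11 had 369, 370.2 and 314 in controls and 141, 115 and 157 in dM1/2 (log2 fold change -1.35, SE 0.17, adjusted p = 0.00174, limma). The falls numbered 8 without control 1, 6 without dM1/2 2 and 10 without dM1/2 3 or the library labelled P28 control 3, and without that library 4 rose, while none rose without control 1 or dM1/2 2.

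Of 57 potassium channel genes, which set the excitability of cells, 19 rose (33.3%) and 13 fell (22.8%). Kcnc1, a fast channel of neurons, had 3.04, 1.92 and 1.9 in controls and 129.6, 136 and 118 in dM1/2 (log2 fold change 5.31, SE 0.32, adjusted p = 0.000214, limma). Kcnh1 had 275, 99.3 and 520.3 in controls and 11.5, 5.57 and 10.8 in dM1/2 (log2 fold change -4.62, SE 0.61, adjusted p = 0.00192, limma). Of 29 calcium and sodium channel genes, 8 rose (27.6%) and 6 fell (20.7%), and Cacna1b, the N-type calcium channel of synapses, had 83.1, 35.9 and 117 in controls and 1993, 1291 and 1401 in dM1/2 (log2 fold change 4.42, SE 0.42, adjusted p = 0.000691, limma). The rises of this list numbered 5 without control 1, dM1/2 1 or dM1/2 2. Cacna2d3, an auxiliary subunit, had 284, 377 and 302 in controls and 70.4, 44.6 and 55.4 in dM1/2 (log2 fold change -2.49, SE 0.23, adjusted p = 0.000612, limma). Of 57 neurotransmitter receptors, 11 rose and 8 fell, shares close to the background. Chrm4, a muscarinic receptor, had 2.17, 5.76 and 2.28 in controls and 263, 392 and 279 in dM1/2 (log2 fold change 6.22, SE 0.39, adjusted p = 0.000227, limma). Gabrg3, a GABA receptor subunit, had 517, 598 and 892 in controls and 35.4, 55.7 and 30.9 in dM1/2 (log2 fold change -4.01, SE 0.30, adjusted p = 0.000333, limma). Falls numbered 13 without control 2.

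REST is a repressor that recruits CoREST and Sin3 to neuronal genes in other cells. Of 34 of its known neuronal targets, 24 reached the minimum for testing. Targets near 0 in controls, such as Cplx1 below, reached it only through dM1/2, which favors rises among those tested. Of the 24, 16 rose (66.7%) and 2 fell, with a median of 2.43. The rises numbered at least 13 in every fit without a library and the falls 1 without control 1, dM1/2 1 or dM1/2 2. Disp2 had 3.04, 3.2 and 9.48 in controls and 272, 255 and 277 in dM1/2 (log2 fold change 5.58, SE 0.41, adjusted p = 0.000333, limma). Cplx1, complexin, had no read in any control and was at least 25.4-fold higher, with 26.4, 53.6 and 30.9 normalized reads in dM1/2. Against the direction of the list, Syp, synaptophysin, had 124, 110.2 and 352 in controls and 17.9, 17.1 and 24.1 in dM1/2 (log2 fold change -3.05, SE 0.46, adjusted p = 0.00324, limma). The medians of this list and of the homeobox, BMP, FGF and potassium channel lists were the same with genes near 0 in controls set at their lower bounds.

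Of 80 tested cytosolic ribosomal protein genes, 54 rose (67.5%) and none fell, with a median of 0.74, and 72 did not overlap between the groups. Rps19 had 3701, 3413 and 2976 in controls and 7892, 11841 and 9033 in dM1/2 (log2 fold change 1.496, SE 0.19, adjusted p = 0.00165, limma). The count rested on single libraries, with 21 without control 1, 19 without dM1/2 2 and 18 without dM1/2 3, while the median stayed between 0.59 and 0.89. Of 18 glycolysis genes, 11 rose and 1 fell, and 5 rose without control 1, dM1/2 2 or dM1/2 3. Aldoc, the brain aldolase, had 2.61, 5.12 and 7.96 in controls and 229, 337 and 175 in dM1/2 (log2 fold change 5.36, SE 0.43, adjusted p = 0.000413, limma), and the platelet-type kinase Pfkp had 505, 584 and 247 in controls and 1327, 1289 and 1264 in dM1/2 (log2 fold change 1.63, SE 0.31, adjusted p = 0.00751, limma). Slc2a3, a glucose transporter, had 314, 258 and 399 in controls and 129, 93.8 and 112 in dM1/2 (log2 fold change -1.52, SE 0.22, adjusted p = 0.00261, limma). Of 81 respiratory chain genes, 15 rose (18.5%), near the background, and none fell. That count was between 5 (without dM1/2 2 or dM1/2 3) and 30 (without dM1/2 1). In cholesterol synthesis, Mvd rose (log2 fold change 1.11) and Sc5d fell (-0.80) among 21 genes, and 5 fell without control 2.

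In the lists of stress and immunity few genes passed. Of 25 interferon response genes, 3 fell and none rose, with 13 falls without the library labelled P28 control 3, 1 without dM1/2 1 or dM1/2 3 and none without control 1, and 1 rise without control 2. Of 13 genes of MHC class I and antigen processing, Tap1, the peptide transporter, rose with 834, 760.2 and 772 in controls and 1124, 1358 and 1352 in dM1/2 (log2 fold change 0.69, SE 0.12, adjusted p = 0.00591, limma), H2-K1 rose (log2 fold change 0.52) and Erap1, the trimming peptidase, fell with 773, 959 and 554 in controls and 244, 321 and 374 in dM1/2 (log2 fold change -1.27, SE 0.25, adjusted p = 0.0082, limma). The call of H2-K1 was lost without control 1, dM1/2 2 or dM1/2 3 (adjusted p from 0.0916 to 0.109, limma) and with the replicate block in limma (adjusted p = 0.0827). In this list 3 genes rose and 3 fell without the library labelled P28 control 3, and 4 rose without control 2. Of 16 immediate early genes, Fos and Egr1 fell. Egr1 had 45155, 44591 and 29503 in controls and 23599.6, 19559 and 19648 in dM1/2 (log2 fold change -0.90, SE 0.27, adjusted p = 0.04, limma), and Fos had an adjusted p of 0.0498 (limma). Neither call held with the replicate block in limma (adjusted p = 0.0974 for Egr1 and 0.115 for Fos) or in any fit that left out control 1, control 2 or a dM1/2 library. In contrast, 7 genes of the list fell without the library labelled P28 control 3. Of 19 heat shock and unfolded protein genes, 3 rose, among them the small heat shock protein Hspb1 with 713, 702 and 270.4 in controls and 1326, 2114 and 1863 in dM1/2 (log2 fold change 1.75, SE 0.40, adjusted p = 0.0141, limma), a call lost without dM1/2 2 or dM1/2 3 (adjusted p from 0.0524 to 0.0614, limma). Without dM1/2 2 none of these genes rose and without dM1/2 3 only 1, and 5 fell without the library labelled P28 control 3.

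The spread between the controls was wider than between the dM1/2 libraries. The SD of log2 values per gene had a median of 0.26 over the 3 controls and 0.19 over the 3 dM1/2 libraries, and at P24 it was 0.23 and 0.21. An SD of at least 1 was found in 1317 genes (9.32%) over the P28 controls and in 276 (1.95%) over the P28 dM1/2 libraries. Controls 2 and 3 were farthest apart. The median absolute difference was 0.41 between them, with 21.4% of genes at least 2-fold apart, against 0.26 between controls 1 and 2 and 0.27 between controls 1 and 3. Between a control and a dM1/2 library it was from 0.50 to 0.63. The control farthest from the middle was control 3 in 44.0% of genes, control 2 in 40.03% and control 1 in 15.9%. In 7279 genes (51.5%) the range of the controls exceeded the difference between the group means, and this held for 203 of the 5018 called genes. Of the 3528 genes with a control range of at least 2-fold, 952 (26.98%) were called, against 38.4% of the rest. The first component of the P28 libraries held 65.7% of the variance and divided the groups. The second held 21.2% and ran from control 2 at -59.9 over control 1 at -13.9 to control 3 at 69.9, with the dM1/2 libraries between -8.41 and 11.3.

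**Figure D3:**
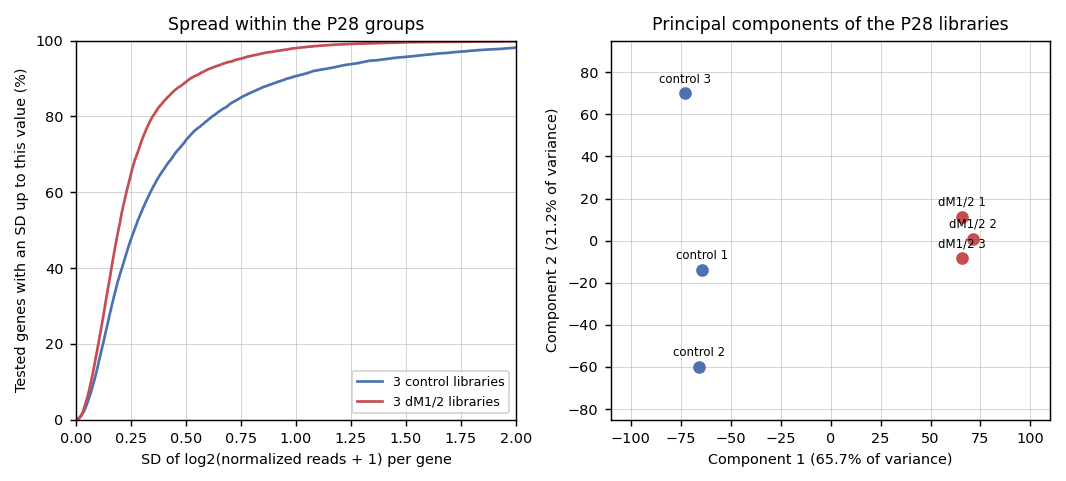
Left, the share of tested genes with an SD of log2(normalized reads + 1) up to the value on the x axis, over the 3 controls (blue) and the 3 dM1/2 libraries (red) at P28. Right, the scores of the 6 libraries on components 1 and 2, where the dM1/2 libraries lie together and controls 2 and 3 lie at the ends of component 2.

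Against the mean of the other controls, the library labelled P28 control 3 had a list median of -3.24 on the log2 scale for markers of other dermal fibroblasts, -2.56 for pericytes, -2.41 for immune cells, -1.71 for endothelial cells, -1.69 for interferon response, -1.41 for basal and suprabasal keratinocytes, -1.36 for contractile genes, -1.13 for adipocytes and -1.11 for immediate early genes. The list medians of melanocyte, skeletal muscle and hair keratinocyte markers were not lowest in it. Its sums of melanocyte and muscle markers, in normalized reads, were still the lowest of the controls. For the DP signature this library was 0.90 above the others. Control 2 had 1.95 for fibroblast markers, 2.06 for pericytes, 0.99 for interferon response and 1.01 for contractile genes, and -1.06 for the DP signature, so that controls 2 and 3 had medians of opposite sign in these lists. Among cell-cycle lists, medians ran from -0.27 to 0.25 for mitosis genes and from -0.10 to 0.02 for replication genes, while G1 cyclins had 0.66 in control 2, Cdk inhibitors -0.64 in control 3 and histones -0.34 in control 2 and 0.42 in control 3. Among single genes, Gm26825, a predicted transcript, had 2420.2, 2694 and 7.21 in controls and 1947, 2343 and 2239 in dM1/2, and only in the library labelled P28 control 3 was it near 0. Gm14226, another predicted transcript, had 10, 17.9 and 4682 in controls and 15.8, 1374 and 32.5 in dM1/2, with high values in that library and in dM1/2 2. Chil1, a chitinase-like protein, had 1.3, 73 and 575 in controls and 2.56, 1.29 and 3.21 in dM1/2, and it passed with DESeq2 (adjusted p = 0.000547), with edgeR (adjusted p = 0.0332), in the limma fit over all 24 libraries (adjusted p = 0.0354) and without control 1 (adjusted p = 0.00888, limma). Ifi202b, an interferon-induced gene that differs between mouse strains, had 217, 533 and 9.86 in controls and 0.426, 93.4 and 2.01 in dM1/2. Ifi202b passed without control 3 (adjusted p = 0.0249, limma) and over all 24 libraries in limma (adjusted p = 0.0147). The labels name these libraries only control or WT. They do not give the genotype at Hdac1 and Hdac2 or the strain share of each control. These and the share of other dermal cells in each sort cannot be told apart as sources of these differences, and none was tested.

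**Figure D4:**
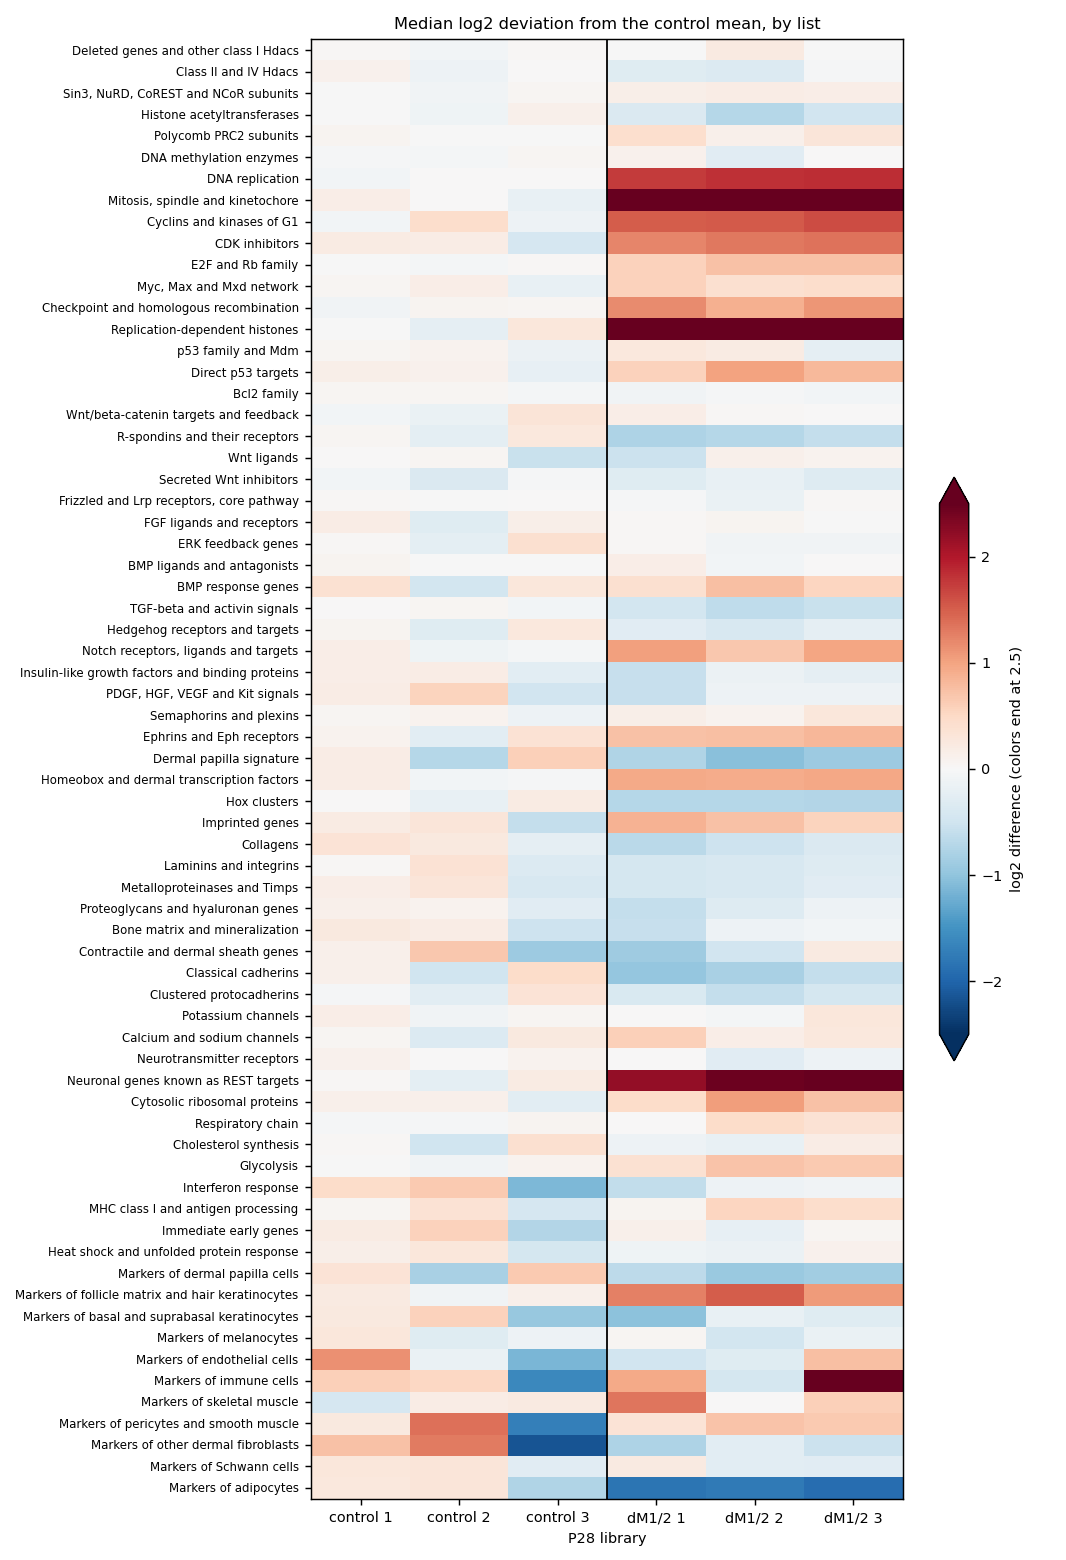
Median log2 deviation of each gene list from the mean of the 3 controls (color scale, red higher and blue lower) in each P28 library. Mitosis, histone, replication and REST target lists are red in each dM1/2 library, and markers of fibroblasts, pericytes and immune cells are blue in the library labelled P28 control 3.

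Whether the effect at P28 differed from that at P24 was tested over the 12 libraries of both ages. The effect, dM1/2 minus control on the log2 scale, differed in 100 of 14139 genes (0.707%, limma). It was higher at P28 than at P24 in 64 and lower in 36, and either group may have moved between the ages. The count was 0 with the replicate block in limma (1362 genes at an unadjusted p under 0.05), 103 with edgeR and 595 with DESeq2. The fit over all 24 libraries called 90 with the balance turned, 36 higher and 54 lower, and 46 of the 100 were among them in the same direction. Among the 64 were Mcm2 and 6 replication-dependent histone genes, for which the effect grew. In all of these genes every P28 control was below every P24 control. Their dM1/2 values overlapped between the ages or were lower at P28. Hist1h1b had 448, 323 and 798 in controls and 2397, 1384 and 2680 in dM1/2 at P24. At P28 it had 68.7, 76.2 and 75.5 in controls and 1353, 1391 and 1505 in dM1/2. Mcm2 had 327, 299 and 451 in controls and 1250.3, 854 and 1223 in dM1/2 at P24, and the log2 effect was 1.63 there and 3.23 at P28 (difference 1.60, SE 0.31, adjusted p = 0.0432, limma). Slc12a1, an ion cotransporter of the kidney, had 19.3, 25.1 and 49.6 in controls and 68.3, 70.1 and 61.2 in dM1/2 at P24 and 27, 25 and 38.7 in controls and 1504, 2519 and 859 in dM1/2 at P28 (difference 4.43, SE 0.56, adjusted p = 0.0126, limma). It was low in all P24 libraries and high in the P28 dM1/2 libraries alone. Cntn3, an adhesion protein of neurons, was below every control in each dM1/2 library at P24 and above every control in each at P28. It had 191, 209 and 257 in controls and 38.2, 93.3 and 45 in dM1/2 at P24 and 109.6, 21.8 and 110.4 in controls and 370.1, 689 and 401 in dM1/2 at P28 (difference 4.82, SE 0.79, adjusted p = 0.031, limma). Its lowest value of the 12 libraries was that of P28 control 2. For Cntn3, too, every P28 control was below every P24 control.

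For the genes named here whose effect was lower at P28, every P28 control was above every P24 control. Cnr1 had 15.1, 26.1 and 35.3 in controls and 27.6, 10.3 and 7.1 in dM1/2 at P24, and its controls at P28 stood at 561, 981 and 944 (difference -4.07, SE 0.73, adjusted p = 0.0379, limma). Dusp4 had 342, 418 and 369 in controls and 527, 438 and 413 in dM1/2 at P24, with an effect of 0.28 there and -2.45 at P28 (difference -2.73, SE 0.28, adjusted p = 0.00919, limma). Wdr86 had 247, 169 and 129.8 in controls and 357, 478 and 498 in dM1/2 at P24 and 1469, 1720.2 and 2818 in controls and 486, 531 and 415 in dM1/2 at P28 (difference -3.33, SE 0.38, adjusted p = 0.00919, limma), so that dM1/2 was above the controls at P24 and below at P28 while the dM1/2 values lay in the same range at both ages. Lipg, an endothelial lipase, had 139, 129.5 and 121 in controls and 111, 84.5 and 114 in dM1/2 at P24 and 724, 872 and 2842 in controls and 90.4, 51.9 and 46.6 in dM1/2 at P28 (difference -3.97, SE 0.61, adjusted p = 0.0298, limma). Nog, a BMP antagonist of the DP, was above every control in each dM1/2 library at P24 (log2 effect 1.64) and had -0.44 at P28 (difference -2.08, SE 0.32, adjusted p = 0.0298, limma). The number of genes was 8 without P28 dM1/2 2, 10 without P24 dM1/2 1, 12 without P28 dM1/2 3, 13 without P24 dM1/2 2, 14 without P24 control 3, 15 without P28 dM1/2 1, 20 without P24 control 1, 23 without P24 dM1/2 3 and 167 without P28 control 2. Slc12a1 and Wdr86 passed in each of the 12 fits that left out a library, and Cnr1, Lipg, Cntn3, Rab3b and Bves did not.

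**Figure D5:**
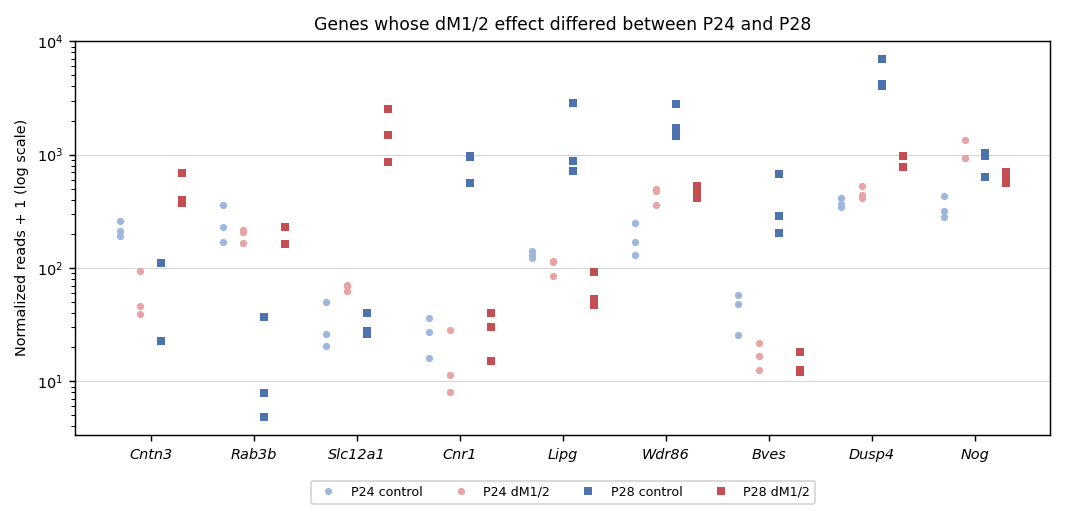
Normalized reads plus 1 (log axis) in each control (blue) and dM1/2 library (red) at P24 (light circles) and P28 (dark squares) for genes whose effect differed between the ages. For Cnr1, Lipg, Bves and Dusp4 the P28 controls stand far above the P24 controls, and for Slc12a1 the P28 dM1/2 libraries stand apart.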

How the data were processed

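The authors deposited tables of normalized reads per gene (unit: signal) for the 24 libraries. The 6 columns for P28 were compared, those for P24 served the difference between ages, and all 24 served the size factors and an alternative fit, so that 0 per-sample columns were left unused. The deposited values are reads divided by a size factor, which equals the median of ratios over all 24 libraries (ratio 1). Reads were recovered by dividing each value by the smallest step of its library, and 100% of the values gave whole reads, with a tolerance of 0.001 of a read, or 0.1% for values over 1000 reads. The comparison columns of the authors (baseMean, log2FoldChange, lfcSE, stat, pvalue and padj) are held in the table and were not used.

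The test is limma with a trend on log2(normalized reads + 1), adjusted by Benjamini and Hochberg over the genes whose mean in the fitted libraries reaches 10 normalized reads, at a threshold of 0.05. The difference between ages is the interaction in a fit over 12 libraries. Other settings used edgeR and DESeq2 on the recovered reads. Fold changes with a group at or below 3 reads per library are given as lower bounds. These floors cover counting error only. Groups are apart when every library of a group is above every library of the other.

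The gene lists and their members were chosen with earlier results of these data known. Of the genes named, 231 follow a rule: a set chosen for its role, up to 2 largest rises and 2 largest falls per list among called genes with groups apart, the 6 largest rises and falls of all, the 6 widest spreads between the controls, and the 4 largest differences between the ages in each direction. Not every one of them is printed, and further genes are named only as members of a list. Genes were matched to GENCODE M21 by identifier (25508 of 25755 genes in the table). Promoters are RefSeq sequences of GRCm38.p6.

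Versions were R 4.3.3, limma 3.58.1, edgeR 4.0.16, DESeq2 1.42.0, Python 3.11.15, pandas 2.3.3, numpy 2.4.6 and matplotlib 3.10.9.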

Additional observations from a re-analysis of the deposited data

Results flagged for a closer look

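The difference between dM1/2 and control differed between P24 and P28 in 100 genes (limma on 12 libraries). No gene passed with the replicate block in limma (1362 at an unadjusted p under 0.05), while edgeR called 103 and DESeq2 595 without the block. On the log2 scale, the effect at P28 minus that at P24 was 1.60 for Mcm2, 2.84 for Sema7a, 3.68 for Gata3, 3.40 for Ptpn5, 4.82 for Cntn3, 4.49 for Rab3b and 4.43 for Slc12a1. It was -2.08 for Nog, -2.73 for Dusp4, -1.09 for Notch2, -2.73 for Cdh6, -4.07 for Cnr1, -3.28 for Bves, -3.97 for Lipg and -3.33 for Wdr86. For Ppp1r1b, which had no read in any P28 control, the fitted value of 2.69 depends on the 1 added before the log.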

How the results depend on the processing

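The P28 count of 5018 genes became 2638 at an adjusted p under 0.01 and 2728 with a fold change of at least 2. Without single libraries it ranged from 3043 to 5788. The replicate block gave 3713, edgeR 4918, DESeq2 5827 and the fit over all 24 libraries 5673.

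The count of 100 genes whose effect differed between P24 and P28 became 4 at an adjusted p under 0.01, 151 with 10 added before the log and 66 with at least 10 normalized reads in every library. With the replicate block limma gave 0, with 1362 genes at an unadjusted p under 0.05, where edgeR gave 103 and DESeq2 595 without the block. Without single libraries the count ranged from 8 to 167. The fit over all 24 libraries gave 90, with 36 higher and 54 lower. The replicate block treats libraries with the same number as a pair, and the numbers do not pair the groups at either age. Correlations of deviations between libraries of the same number were -0.15, 0.03 and -0.23 at P28 and -0.16, 0.04 and -0.39 at P24. Those of other pairs ranged from -0.16 to 0.22 at P28 and from -0.30 to 0.39 at P24.

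The median of the hair keratinocyte markers was 1.28 and became -0.0102 with no filter on low values. It was 2.74 without control 1, 0.66 without control 2, 2.66 without control 3 and 2.71 without dM1/2 3. Over all settings, 3631 comparisons were made for the named genes. Of these, 3348 kept the call or its absence, 261 lost the call, 22 gained it and 0 turned sign with a call in either setting. Genes without a call could turn, as Hdac1 did.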

Other observations

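Gene families by name were chosen after the data were seen. Of 335 tested zinc finger genes named Zfp, 22 rose (6.57%) and 61 fell (18.2%), with a median of -0.19, against 20.0 and 15.6% for all genes. Of 36 kinesins, 17 rose and 5 fell, and of 13 tubulins, 8 rose and 1 fell (median 0.98). All 7 chaperonin subunits rose (median 0.64). Of 17 aminoacyl-tRNA synthetases, 7 rose and none fell, and of 12 polyamine and one-carbon enzymes, 7 rose and none fell (median 0.89). Of 30 chemokines and their receptors, 1 rose and 5 fell. Solute carriers were near the background, with 46 higher and 45 lower of 250.

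By chromosome, the share of tested genes that rose was highest on chromosome 13, at 26.8%. This chromosome holds a large cluster of replication-dependent histone genes, whose part in the share was not tested.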
